A study of Sus scrofa with 9 samples.

Results

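Transcripts of blood clotting and clot breakdown were examined in pig liver, as 33 genes chosen by name. They cover the fibrinogen chains, the clotting factors, their inhibitors, the fibrinolytic proteins and the vitamin K cycle. Of these, 32 stood in the deposited table of 29837 gene symbols. PROZ, the gene of protein Z, was not analysed here. All 32 passed the filter on low counts, which kept 14100 genes in the whole table.

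The libraries come from 9 livers, each of 1 female pig aged 2 years, 4 of genotype MIDY and 5 wild type (WT). The name MIDY stands for the diabetes of youth that a mutant INS gene induces, and these pigs carry an insulin transgene with the C94Y substitution. The labels state that diabetic animals got short and long acting insulin by day, so a difference between the groups is one between treated transgenic and WT pigs, and genotype and insulin treatment cannot be told apart. The labels do not name the promoter of the transgene or the number of founder lines. Total RNA was depleted of ribosomal RNA, and each library held 14115415 to 19533463 counts. All 10 hepatocyte markers were detected, with a summed level of 146976 to 173206 CPM in MIDY and 119406 to 172677 CPM in WT. ALB made up most of this sum, with means of 117614 CPM in MIDY and 106557 CPM in WT. Of the 10, CPS1 and APOB lay higher in every MIDY than in every WT library (20%, against 6.35% of all genes fully apart), and the others overlapped. INS had 3 counts over the MIDY and 2 over the WT libraries, too few to check the genotype. Of the marker lists for other cells, the summed level lay lower in every MIDY than in every WT library for T and NK cells (24.3 to 27.6 against 30.3 to 49.0 CPM) and neutrophils (4.72 to 6.30 against 6.78 to 12.1 CPM), and red blood cell markers ran from 69.3 to 1506 CPM over all libraries. CD2 of the T and NK list was called lower by the edgeR test given below (-0.90 log2, adjusted p = 0.0377). Only 3 of the 8 neutrophil markers passed the filter on low counts. Levels are CPM, counts scaled to a library of 1e+06 after TMM scaling, a correction for library composition. MIDY 4 and WT 3 had the highest and the lowest TMM factor, 1.105 and 0.90. Where both stood at the ends of a transcript's range, the fold change without them is given too. This omission was chosen after the data were seen. Taking out the lowest MIDY and the highest WT liver raises a fold change by construction, so the direction of that shift is not a result.

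Clotting in plasma is a cascade of proteases that ends with thrombin cutting fibrinogen into fibrin, which factor XIII then crosslinks. The hepatocyte makes most of these proteins, and the vitamin K cycle in its endoplasmic reticulum carboxylates prothrombin, factors VII, IX and X and proteins C, S and Z so that they bind calcium and membranes. Inhibitors such as antithrombin and the protein C system hold the cascade in check, and plasmin, made from plasminogen by tissue or urokinase activator, dissolves the clot. Some parts of the system, among them factor VIII, thrombomodulin, tissue activator and the factor XIII A chain, come mainly from endothelial cells or from cells of the blood and macrophage lineage.

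The comparison of MIDY with WT asks whether the liver's output of these transcripts differs in insulin-treated diabetic pigs. No clotting or fibrinolysis transcript was called higher or lower by edgeR's quasi-likelihood test. At a Benjamini-Hochberg adjusted p below 0.05 over all genes, it called 0 of 32 higher and 0 of 32 lower, where it called 0.816% of all genes tested higher, 0.355% lower and so 1.17% in all. At an unadjusted p below 0.05 there were 3 of 32, or 9.38%, against 16.1% of all genes: GGCX, with a higher mean in MIDY, and PLAT and HRG, with lower means. In 1 of 32, GGCX, MIDY and WT levels were fully apart, as in 6.35% of all genes. DESeq2 called 1 of 32, again GGCX, where it called 4.62% of all genes, and limma voom called 0. The median log2 fold change over the 32 was -0.10, with 13 above 0 and 19 below, beside -0.0046 over all genes tested.

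**Figure D1:**
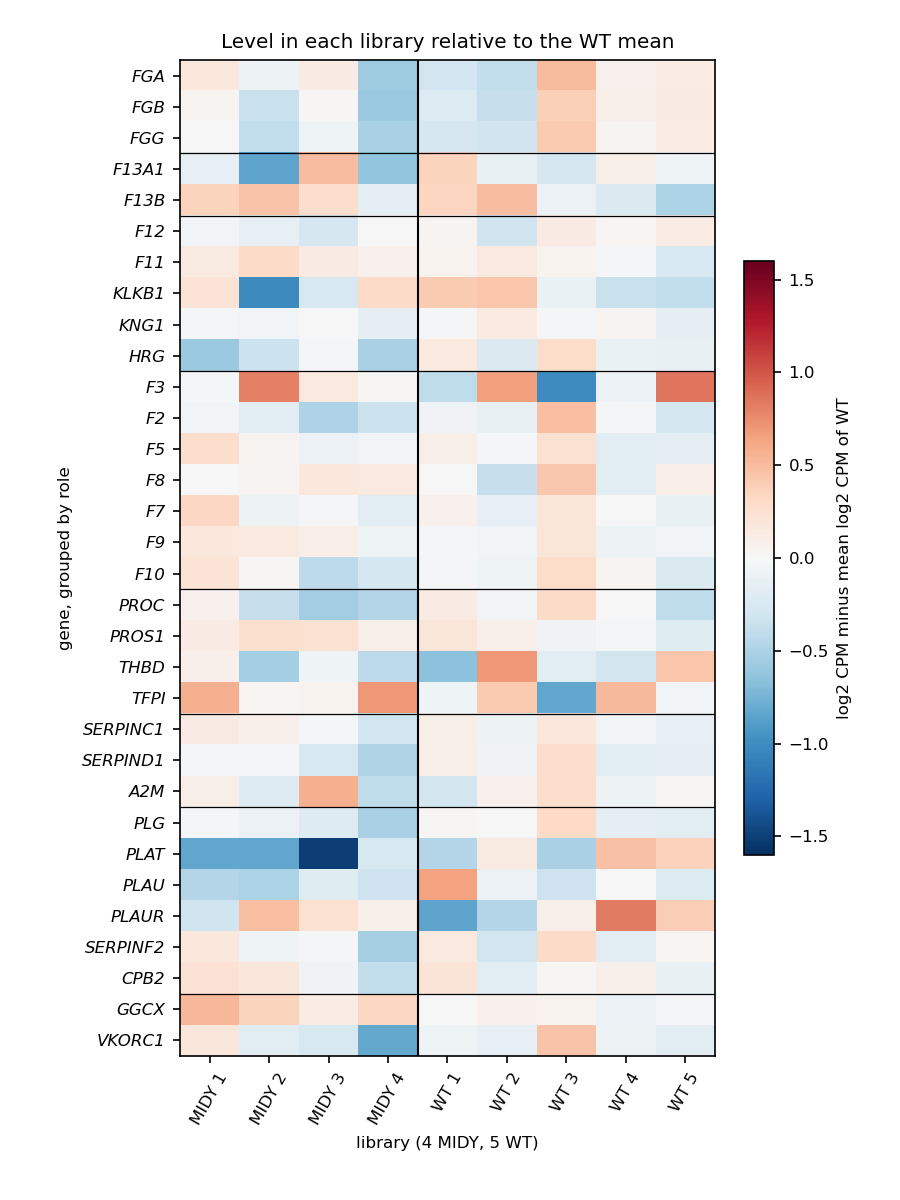
Level of each of the 32 transcripts (rows, grouped by role) in each of the 9 libraries (columns), as log2 CPM minus the mean log2 CPM of the 5 WT libraries. GGCX is above the WT mean in all 4 MIDY libraries, and MIDY 4 is pale to mid blue and WT 3 pale to mid red in most of the abundant genes.

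The size of a difference that these livers leave room for can be read from the 95% interval of each log2 fold change, which is not adjusted for the number of genes. For 30 of 32 transcripts the whole interval lay within a 2-fold change in either direction (93.8%, against 77.3% of all genes). For 17 of 32 it lay within 1.5-fold (53.1%, against 48.6%). PLAT and PLAU were the 2 whose interval passed 2-fold. Of the 32, 22 had a mean of at least 100 CPM, F13B, F8 and F7 lay between 10 and 100, and F13A1, F3, THBD, TFPI, PLAT, PLAU and PLAUR were below 10. The coefficient of variation between livers had a median over the 22 abundant transcripts of 16.0% in MIDY and 14.1% in WT, and over the 7 scarce ones of 23.8% and 33.3%.

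**Figure D2:**
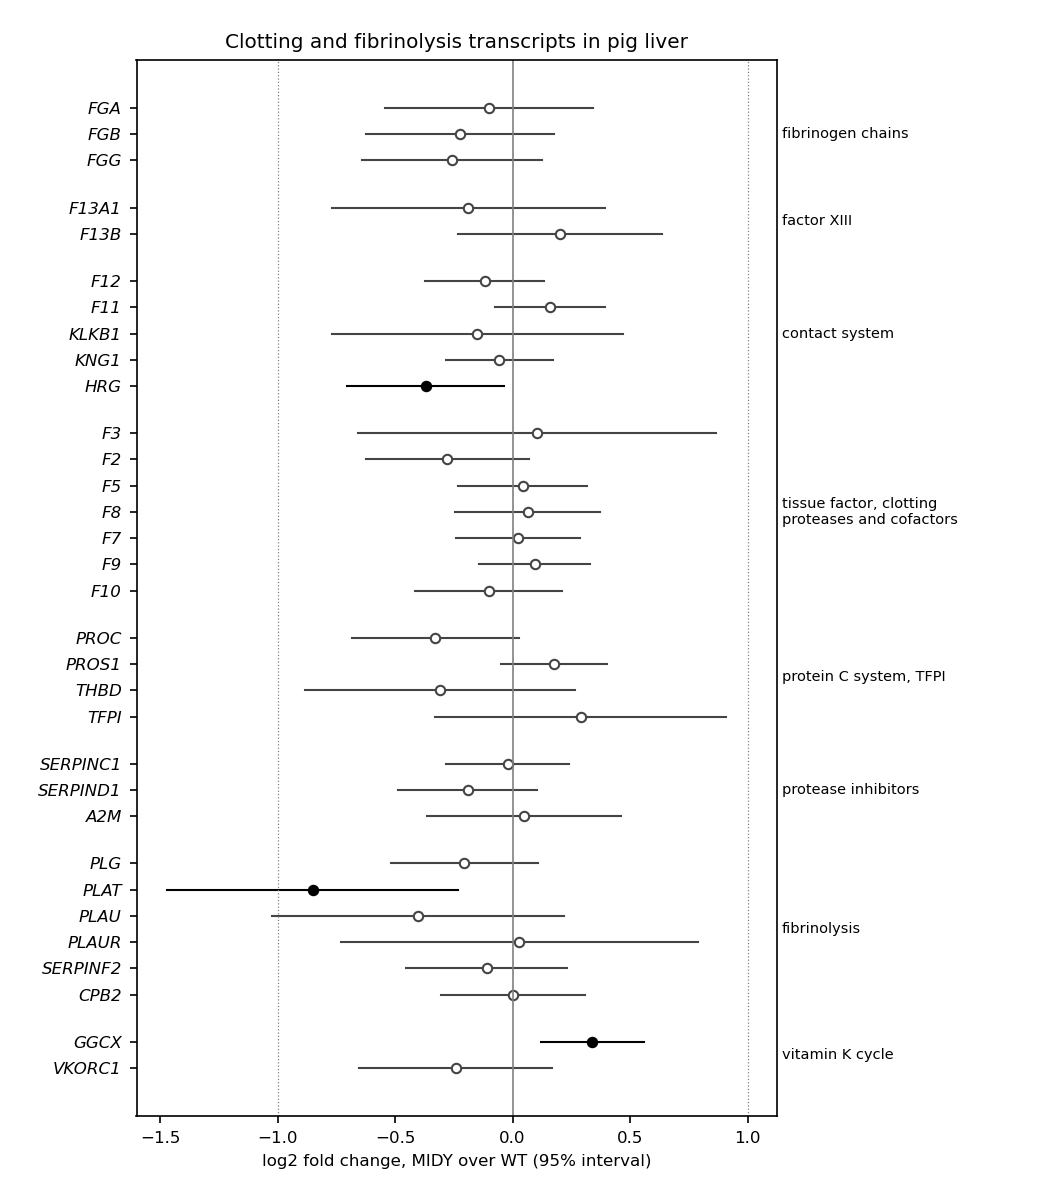
Log2 fold change of MIDY over WT (x axis) for each transcript, as a point with its 95% interval, grouped by role. Filled points have an unadjusted p below 0.05 (GGCX, PLAT and HRG), and the dotted lines mark a 2-fold change, which only the intervals of PLAT and PLAU pass.

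The 3 fibrinogen chain genes, whose products assemble into the clot-forming protein, lie together on Sscrofa11.1 (FGG on chromosome 8, 74553040 to 74562151, FGA from 74574870 to 74584202 and FGB from 74598170 to 74607409). Together they took 2.49 to 3.38% of all counts in the MIDY and 2.66 to 4.00% in the WT libraries. FGA, the alpha chain, stood at 8233, 6933, 8056 and 4941 CPM in MIDY 1 to 4 and at 5930.3, 5614, 10477, 7685 and 8011 CPM in WT 1 to 5. FGB, the beta chain, stood at 12897, 9759, 12663 and 8304 CPM in MIDY and 10759.9, 9707, 16277, 13210.0 and 13699.5 CPM in WT. FGG, the gamma chain, stood at 13189, 10062, 12621 and 9284 CPM in MIDY and 11029, 10681, 17744, 13650.5 and 14417 CPM in WT. MIDY 4 was lowest and WT 3 highest for all 3 chains, and the other libraries of the groups overlapped. The log2 fold changes were -0.10 ± 0.20, -0.22 ± 0.18 and -0.26 ± 0.18 (SE; edgeR adjusted p = 0.865, 0.595 and 0.506), with 95% intervals of -0.54 to 0.34, -0.62 to 0.18 and -0.64 to 0.12. Without MIDY 4, or without WT 3, the fold change of FGA was above 0, at 0.03 and 0.05. Without both libraries the log2 fold changes of FGA, FGB and FGG were 0.19, -0.01 and -0.06.

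The ratio of chains within a library does not depend on how libraries are scaled. The count ratio of FGB to FGG stayed between 0.894 and 1.003 over the 9 livers, a 1.12-fold range, while FGG itself ranged from 9284 to 17744 CPM. The count ratio of FGA to FGG was 0.624, 0.689, 0.638 and 0.532 in MIDY 1 to 4 and 0.538, 0.526, 0.590, 0.563 and 0.556 in WT 1 to 5. MIDY 1, 2 and 3 lay above all WT livers and MIDY 4 lay among them. Over 5 such ratios of paired genes, compared between the groups by exact two-sided permutation tests and chosen in this form after the levels were seen, FGA to FGG had p = 0.0952 and FGB to FGG p = 0.508 (adjusted p = 0.317 and 0.508; smallest possible p 0.00794). The counts are not divided by transcript length, so a ratio says nothing of the relative number of molecules.

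**Figure D3:**
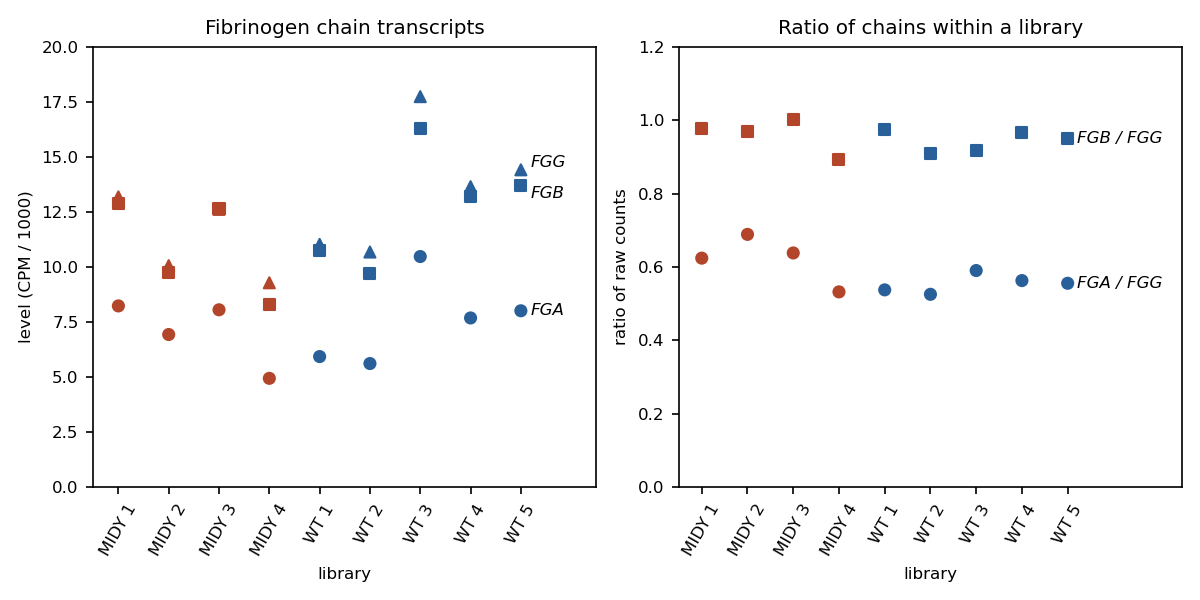
Left, level of FGA (circles), FGB (squares) and FGG (triangles) (CPM divided by 1000) in each of 4 MIDY (red) and 5 WT (blue) libraries; right, count ratios of FGA and FGB to FGG in the same libraries. FGB and FGG keep a ratio of 0.894 to 1.003 in every library, and the FGA ratio is highest in MIDY 1 to 3.

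Factor XIII, the enzyme that crosslinks fibrin, has a catalytic A chain (F13A1) and a carrier B chain (F13B). F13B, made in the hepatocyte, stood at 94.4, 101, 89.9 and 66.3 CPM in MIDY and 93.8, 104, 69.6, 63 and 51.9 CPM in WT, so that WT 1 and WT 2 lay with the MIDY livers and the other WT livers near or below MIDY 4. Its log2 fold change was 0.20 ± 0.20 (SE; edgeR adjusted p = 0.665). F13A1, known from macrophages and platelets, had 28 to 93 counts per library and ranged over 1.94 to 4.90 CPM in MIDY and 2.90 to 4.45 CPM in WT (-0.19 ± 0.27 log2, SE; edgeR adjusted p = 0.785). Beside it, the summed level of 13 macrophage and monocyte markers was 1034 to 1368 CPM in MIDY and 1168 to 1625 CPM in WT. Of these 13, edgeR called 0 (1.17% of all genes), and 5 had an unadjusted p below 0.05 (38.5%, against 16.1% of all genes). MARCO was higher, and CD163, C1QA, C1QC and LYZ were lower. The summed level of 9 platelet markers was 4.24 to 7.22 CPM in MIDY and 5.05 to 7.40 CPM in WT. Only 2 of these 9, ITGA2B and SELP, passed the filter on low counts, and GP1BB was at 0 in every library. The part of these cells in the F13A1 values was not tested.

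Among the genes grouped here with the contact system, which starts clotting on charged surfaces, the transcript with the smallest p was HRG. It encodes histidine-rich glycoprotein, which binds heparin, plasminogen and factor XII and is not itself a factor of that system. HRG (chromosome 13, 124505305 to 124516387) stood at 2467, 2927, 3642 and 2600.3 CPM in MIDY and 4157, 3184, 4548, 3461 and 3438 CPM in WT. MIDY 1, 2 and 4 lay below all WT livers and MIDY 3 lay above 3 of them. The log2 fold change was -0.37 ± 0.15 (SE; edgeR unadjusted p = 0.0326, adjusted p = 0.264; 95% interval -0.70 to -0.04), and its fitted value stayed between -0.49 and -0.29 when any 1 library was omitted. With these omissions edgeR's unadjusted p ran from 0.00833 (without MIDY 3) to 0.0987 (without MIDY 1). Without MIDY 4 and WT 3 together the log2 fold change of HRG was -0.24 (edgeR unadjusted p = 0.144). Its neighbour KNG1, the gene of kininogen, starts 4888 bases beyond the end of HRG and varied little between livers, 1431 to 1572 CPM in MIDY and 1436 to 1759 CPM in WT, a coefficient of variation of 4.21% and 7.46% (-0.06 ± 0.11 log2, SE; 95% interval -0.28 to 0.17). The count ratio of HRG to KNG1 was 1.58, 1.90, 2.32 and 1.82 in MIDY and 2.67, 1.81, 2.92, 2.13 and 2.39 in WT (exact permutation p = 0.127, adjusted p = 0.317).

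F11, the gene of factor XI, stood at 421, 472, 418 and 399.7 CPM in MIDY and 396, 424, 397, 378 and 319 CPM in WT. MIDY 2 was the highest liver and WT 5 the lowest, and the rest overlapped (0.16 ± 0.11 log2, SE; edgeR adjusted p = 0.505; 95% interval -0.08 to 0.39). F12, the gene of factor XII, ranged over 357 to 428 CPM in MIDY and 344 to 470.0 CPM in WT (-0.12 ± 0.12 log2, SE; edgeR adjusted p = 0.663). KLKB1, the gene of plasma prekallikrein, which is activated by factor XII, varied far more between livers, at 356, 151, 256 and 377 CPM in MIDY and 408, 417, 283, 239 and 232 CPM in WT. MIDY 2 stood lowest of all and WT 1 and WT 2 highest (-0.15 ± 0.28 log2, SE; 95% interval -0.77 to 0.47). Its fold change lay above 0 without MIDY 2 (0.06) and without WT 1 and WT 2 (0.17). The RefSeq table of Sscrofa11.1 places F11 on chromosome 17 and KLKB1 on chromosome 15. Their count ratio ran from 0.970 to 3.13 over the libraries (exact permutation p = 0.373, adjusted p = 0.466).

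None of the clotting proteases and their cofactors was called by edgeR. F2, the gene of prothrombin, had the smallest p of them. It stood at 1368, 1249.8, 997 and 1104 CPM in MIDY and 1357, 1297, 1962, 1379 and 1153 CPM in WT, with WT 3 far above every other liver and the rest overlapping. Its log2 fold change was -0.28 ± 0.16 (SE; edgeR adjusted p = 0.425; 95% interval -0.63 to 0.07), and it was -0.14 without WT 3. F9, the gene of factor IX, ranged over 1345 to 1587 CPM in MIDY and 1328 to 1611 CPM in WT, and F10, the gene of factor X, over 149 to 233 CPM in MIDY and 171 to 244 CPM in WT. Their log2 fold changes were 0.09 ± 0.11 and -0.10 ± 0.14 (SE; edgeR adjusted p = 0.727 and 0.784).

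F7, the gene of factor VII, ends 3091 bases before F10 begins on chromosome 11, and ranged over 32.4 to 46 CPM in MIDY and 33.2 to 41.6 CPM in WT (0.02 ± 0.12 log2, SE; 95% interval -0.24 to 0.29). The count ratio of F7 to F10 lay between 0.170 and 0.242 (exact permutation p = 0.333, adjusted p = 0.466). F5, the gene of the cofactor factor V, ranged over 1011 to 1303 CPM in MIDY and 957 to 1271 CPM in WT (0.04 ± 0.13 log2, SE; 95% interval -0.23 to 0.32). F8, the gene of factor VIII, which liver sinusoidal endothelium is known to make, ranged over 47.4 to 53.5 CPM in MIDY and 36.9 to 64.4 CPM in WT, and its 4 MIDY values lay inside the WT range (0.06 ± 0.14 log2, SE; 95% interval -0.25 to 0.37). The summed level of 14 endothelial markers was 1017 to 1117 CPM in MIDY and 969 to 1182 CPM in WT, but the single markers did not move together. Of the 14, 11 had fold changes below 0 and 3 above. At an unadjusted edgeR p below 0.05 there were 3 (21.4%, against 16.1% of all genes). These were STAB2, higher at 0.38 log2, and PECAM1 and TEK, lower at -0.24 each. The part of endothelial cells in the F8 values was not tested. F3, the gene of tissue factor, which starts clotting in wounds, was scarce at 16 to 71 counts per library (0.10 ± 0.35 log2, SE; 95% interval -0.66 to 0.87).

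Of the anticoagulant protein C system, PROC and PROS1 were abundant. PROC encodes protein C, which when activated destroys factors V and VIII, and stood at 735, 542, 476 and 503 CPM in MIDY and 768, 678, 867, 699.5 and 529 CPM in WT. MIDY 3 and MIDY 4 lay below all WT livers, MIDY 2 was close to WT 5, and MIDY 1 lay among the highest. The log2 fold change was -0.33 ± 0.16 (SE; edgeR unadjusted p = 0.0664, adjusted p = 0.347; 95% interval -0.68 to 0.03). PROS1, the gene of its cofactor protein S, stood at 343, 375, 369.8 and 335 CPM in MIDY and 359.9, 333, 301, 306 and 274 CPM in WT. MIDY 2 and MIDY 3 lay above all WT livers (0.18 ± 0.10 log2, SE; edgeR adjusted p = 0.439; 95% interval -0.05 to 0.40). THBD, the gene of thrombomodulin, the endothelial receptor that turns thrombin to protein C, ranged over 4.51 to 6.99 CPM in MIDY and 4.17 to 10.7 CPM in WT (-0.31 ± 0.26 log2, SE; edgeR adjusted p = 0.611). TFPI, the gene of the inhibitor of tissue factor, had 16 to 61 counts per library (0.29 ± 0.29 log2, SE; 95% interval -0.33 to 0.91).

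The protease inhibitor genes showed no called difference either. SERPIND1, which encodes heparin cofactor II, a thrombin inhibitor, had the smallest p of them, at 583, 585, 493 and 422 CPM in MIDY and 632, 567, 719, 527 and 528 CPM in WT. MIDY 4 and MIDY 3 were the lowest livers and the other MIDY livers overlapped WT (-0.19 ± 0.14 log2, SE; edgeR adjusted p = 0.526; -0.03 without MIDY 4 and WT 3). SERPINC1, the gene of antithrombin, had means of 1087 ± 139 CPM in MIDY and 1103 ± 97.4 CPM in WT (SD, n = 4 and 5). Its log2 fold change was -0.02 ± 0.12 (SE; edgeR adjusted p = 0.956; 95% interval -0.28 to 0.24). A2M, the gene of a broad macroglobulin protease trap, ranged over 2581 to 5095 CPM in MIDY and 2802 to 4176 CPM in WT, with MIDY 3 highest and MIDY 4 lowest of all livers (0.05 ± 0.19 log2, SE; edgeR adjusted p = 0.93).

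In fibrinolysis, PLAT had the largest fold change of the 32. PLAT (chromosome 17, 11195599 to 11223821) encodes tissue plasminogen activator and was scarce in these libraries, with 29 to 99 counts each. It stood at 2.43, 2.43, 1.53 and 3.62 CPM in MIDY and 3.13, 4.80, 3.04, 5.99 and 5.59 CPM in WT. MIDY 1, 2 and 3 lay below all WT livers and MIDY 4 lay above WT 1 and WT 3. The log2 fold change was -0.85 ± 0.29 (SE; edgeR unadjusted p = 0.011, adjusted p = 0.173; DESeq2 adjusted p = 0.0833), and its 95% interval of -1.47 to -0.23 holds both a small and a more than 2-fold lower level. Over the alternatives its adjusted p lay between 0.0802 and 0.362. In bulk liver, fewer cells of a type and less RNA per cell cannot be told apart. Of 14 endothelial markers edgeR called 0, with a median log2 fold change of -0.13. Of 12 stellate cell and fibroblast markers edgeR called 1 lower, COL1A2 (0.355% of all genes lower), and DESeq2 called 4 lower (4.62% of all genes in either direction). At an unadjusted edgeR p below 0.05 there were 7 of the 12, all lower (58.3%, against 16.1% of all genes). The median log2 fold change of the 12 was -0.79. Their summed level was 497 to 620 CPM in MIDY and 571 to 884 CPM in WT. The part of these cells in the PLAT values was not tested.

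PLAU, the gene of urokinase, had 14 to 31 counts per library and stood at 0.998, 0.972, 1.21 and 1.10 CPM in MIDY and 2.16, 1.30, 1.10, 1.39 and 1.19 CPM in WT. WT 1 was well above the other livers (-0.40 ± 0.29 log2, SE; edgeR adjusted p = 0.526). PLAUR, the gene of its receptor, had 10 to 35 counts (0.03 ± 0.35 log2, SE; 95% interval -0.73 to 0.79), so that only large changes could have been seen. PLG, the gene of plasminogen, stood at 3239, 3070.4, 2846 and 2290.4 CPM in MIDY and 3310.4, 3262, 4089, 2949 and 2890.1 CPM in WT. WT 3 was highest and MIDY 4 lowest, with the other livers close together (-0.21 ± 0.14 log2, SE; edgeR adjusted p = 0.519; 95% interval -0.52 to 0.11; -0.02 without both). SERPINF2, the gene of antiplasmin, and CPB2, the gene of the carboxypeptidase that protects fibrin from plasmin, had log2 fold changes of -0.11 ± 0.16 and 0.00 ± 0.14 (SE; edgeR adjusted p = 0.785 and 0.996).

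In the vitamin K cycle, GGCX had the smallest p of the 32 transcripts. GGCX (chromosome 3, 59202363 to 59219807) encodes the gamma-glutamyl carboxylase, and stood at 209, 184, 157 and 181 CPM in MIDY and 143, 151, 149.9, 135 and 141 CPM in WT. Each MIDY liver lay above each WT liver, with MIDY 3 only just above WT 2. Means were 182 ± 21.2 CPM in MIDY and 144 ± 6.68 CPM in WT (SD, n = 4 and 5). The log2 fold change was 0.34 ± 0.10 (SE; 95% interval 0.12 to 0.56), a 1.27-fold difference, with an edgeR unadjusted p = 0.00522 that did not pass the adjustment over all genes (edgeR adjusted p = 0.127; DESeq2 adjusted p = 0.0328). With any 1 library omitted, the log2 fold change lay between 0.27 and 0.41 and edgeR's adjusted p between 0.128 and 0.255. VKORC1, the gene of the reductase that returns vitamin K to use and that warfarin blocks, stood at 123, 96.5, 91.4 and 61.7 CPM in MIDY and 104, 98.9, 149, 103 and 96.3 CPM in WT. MIDY 4 was lowest and WT 3 highest, and the rest overlapped (-0.24 ± 0.19 log2, SE; edgeR adjusted p = 0.569; 0.05 without both). The substrates of the carboxylase among the 32 had no common direction. F2, F10 and PROC had fold changes below 0, and F7, F9 and PROS1 above 0, with values from -0.33 to 0.18 on the log2 scale.

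Of 53 other genes of the pathway that passed the filter, edgeR called 0 (1.17% of all genes), 7 had an unadjusted p below 0.05 (13.2%, against 16.1%), and DESeq2 called 5 (4.62% of all genes). They are inhibitors and receptors, further fibrinolytic genes, genes of vitamin K handling and of the secretion of factors V and VIII, and regulators of liver genes. The smallest p of the 53 was that of MCFD2, whose product pairs with that of LMAN1 to form the cargo receptor that carries factors V and VIII out of the endoplasmic reticulum. MCFD2 stood at 189, 139.9, 202 and 204 CPM in MIDY and 128, 120.2, 112, 138 and 130.3 CPM in WT. LMAN1 stood at 588, 409, 449 and 369.6 CPM in MIDY and 358, 288, 288, 362 and 334 CPM in WT. For both, every MIDY liver lay above every WT liver, the closest being MIDY 2 and WT 4 for MCFD2 and MIDY 4 and WT 4 for LMAN1. The log2 fold changes were 0.55 ± 0.12 and 0.48 ± 0.14 (SE; edgeR adjusted p = 0.0519 and 0.127; DESeq2 adjusted p = 0.00288 and 0.0436). The cargo of this receptor, F5 and F8, had the fold changes of 0.04 and 0.06 given above. MCFD2 was called with no filter on low counts and without MIDY 2 (edgeR adjusted p = 0.0345 and 0.0351).

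NQO1, a quinone reductase able to reduce vitamin K, stood at 15.5, 23.7, 16.2 and 11.6 CPM in MIDY and 6.19, 10.4, 9.66, 9.71 and 11 CPM in WT, again without overlap (0.83 ± 0.21 log2, SE; edgeR adjusted p = 0.0789; DESeq2 adjusted p = 0.0118). SERPINA5, the gene of the protein C inhibitor, stood at 799, 729, 736 and 601 CPM in MIDY and 579.6, 369, 499, 577 and 545 CPM in WT, with MIDY 4 just above WT 1 (0.48 ± 0.14 log2, SE; edgeR adjusted p = 0.13; DESeq2 adjusted p = 0.0408). SERPINE2, the gene of protease nexin, was scarce and lower in each MIDY than in each WT liver, at 1.81, 1.60, 2.58 and 2.46 and 2.85, 3.35, 3.80, 2.84 and 4.01 CPM (-0.66 ± 0.22 log2, SE; edgeR adjusted p = 0.169). Such a separation was seen for 4 of the 53 with MIDY higher and 1 with MIDY lower, where all genes gave 3.72% and 2.63%. TFPI2, an inhibitor related to TFPI, had a log2 fold change of -0.32 ± 0.15 (SE; edgeR adjusted p = 0.315).

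**Figure D4:**
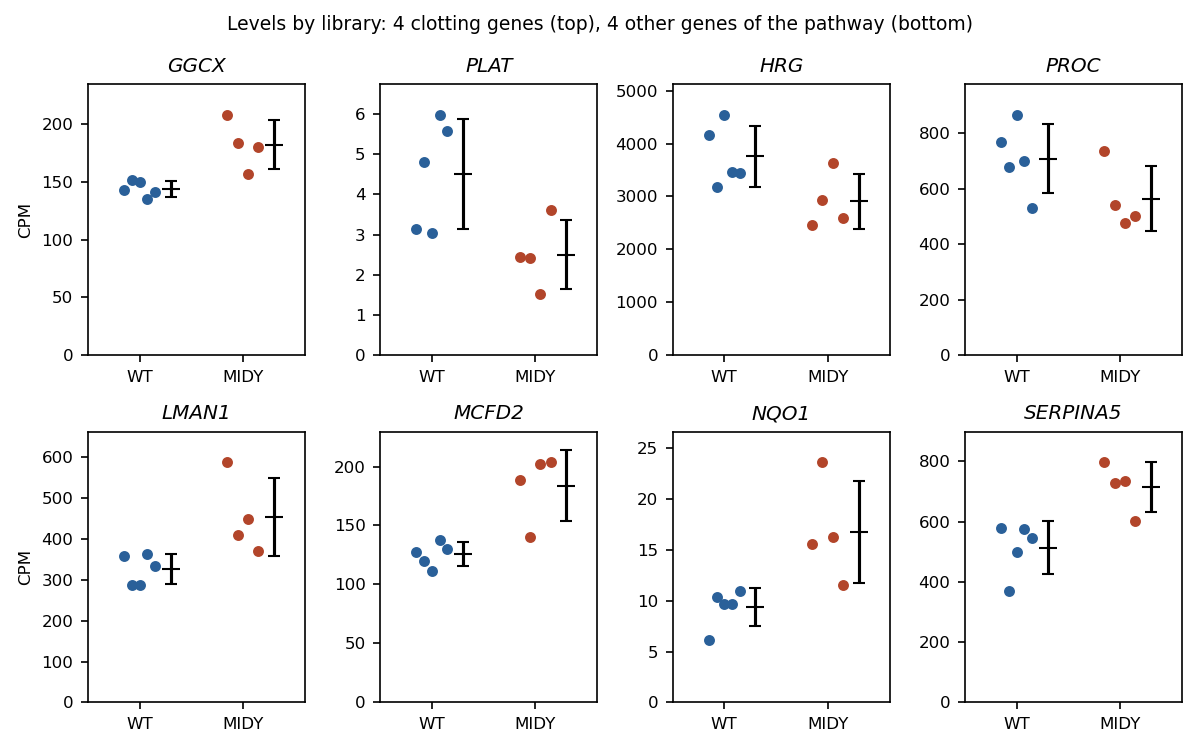
Level in CPM of GGCX, PLAT, HRG and PROC (top) and of LMAN1, MCFD2, NQO1 and SERPINA5 (bottom) in 5 WT (blue) and 4 MIDY (red) livers, with the mean and SD beside the points; each y axis starts at 0 and has its own scale. The groups do not overlap for GGCX, LMAN1, MCFD2, NQO1 and SERPINA5, and overlap for PLAT, HRG and PROC.

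None of the further fibrinolytic genes was called: ENO1, whose product also binds plasminogen, had 0.31 ± 0.15 and LRP1, a receptor that clears protease complexes, 0.18 ± 0.13 (log2 ± SE; edgeR adjusted p = 0.338 and 0.538). Of the 19 regulators, ESR1, the estrogen receptor, was at 8.86, 12.2, 10.1 and 7.76 CPM in MIDY and 15.6, 14.6, 14.8, 13.2 and 11.4 CPM in WT (-0.52 ± 0.15 log2, SE; edgeR adjusted p = 0.122; DESeq2 adjusted p = 0.0462). FOXA2 and HNF4A, which drive hepatocyte genes, had log2 fold changes of 0.31 ± 0.18 and 0.08 ± 0.13, and STAT3 and IL6R, of the interleukin signal that induces fibrinogen, 0.09 ± 0.16 and 0.26 ± 0.17 (SE; edgeR adjusted p = 0.425, 0.817, 0.849 and 0.487; HNF4A, STAT3 and IL6R were picked after their values were seen).

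Part of the spread between livers ran through most of these transcripts at once. WT 3 lay above the WT mean for 22 of the 32 and MIDY 4 for 8. WT 3 was the highest library for 15 of the 32 and MIDY 4 the lowest for 12. Such counts over all genes are not given here, so the pattern is not shown to be particular to these transcripts. The median over the 32 of the log2 level, relative to the WT mean, was 0.18 in WT 3 and -0.29 in MIDY 4, and between -0.12 and 0.09 in the other 7 libraries. With scaling by total counts alone the medians of these 2 libraries were 0.035 and -0.14. Over the 22 transcripts of at least 100 CPM, the medians of WT 3 and MIDY 4 were 0.28 and -0.37 with TMM scaling. With total counts alone these 22 had medians of 0.14 in WT 3 and -0.22 in MIDY 4. Without both libraries edgeR still called 0 of 32, and the median log2 fold change over the 32 was 0.02 in place of -0.10, with 17 above 0 and 15 below. Because WT 3 was often the highest and MIDY 4 often the lowest library, a rise of this median follows from the choice of libraries. The part of scaling in this spread was not tested beyond these values.

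**Figure D5:**
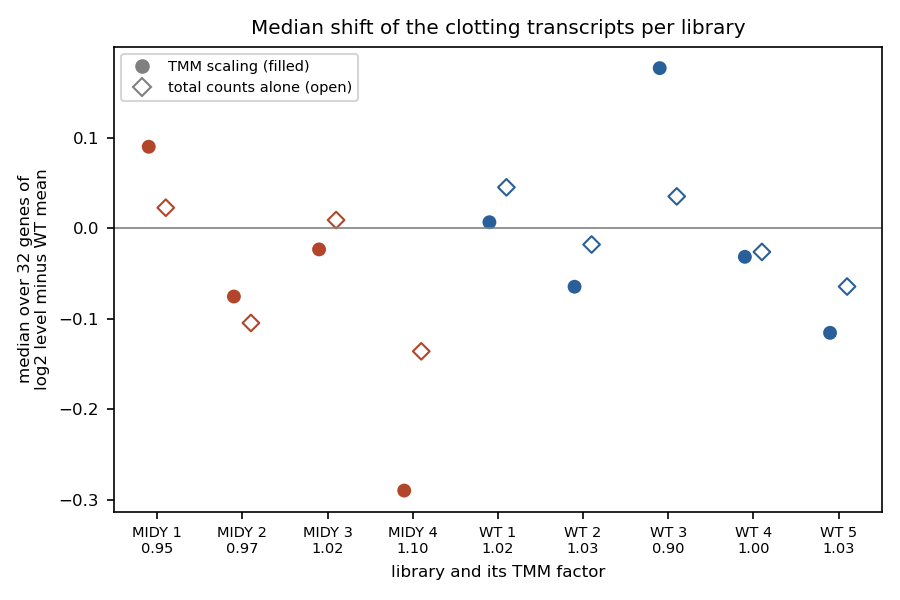
Median over the 32 transcripts of the log2 level minus the WT mean (y axis) in each library, MIDY in red and WT in blue, with TMM scaling (filled circles) and with total counts alone (open diamonds); the TMM factor stands under each library. WT 3 and MIDY 4 lie farthest from 0 with TMM scaling, at 0.18 and -0.29, and nearer to 0 with total counts, at 0.035 and -0.14.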

How the data were processed

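Liver RNA (Trizol) was made into libraries with the Encore Complete system, per the labels' protocols. The submitters' processing notes name STAR, HTSeq, DESeq2 and the build Sscrofa11.1. Tool versions, annotation release and strand setting, not given in the sources used here, could affect the counts. What the authors deposited is a table of raw counts per gene symbol, 1 column per library, without normalization. It held 0 unused columns and 0 entries naming no gene. Since the strand setting is unknown, reads of overlapping genes may be mixed: F13A1, F5, F8, F9, TFPI, SERPINC1, SERPIND1, PLG, PLAU and PLAUR overlap another gene model, so their counts are uncertain. Positions come from the RefSeq table of Sscrofa11.1, which gives F13B no chromosome; all 29837 symbols matched it.

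Groups follow the genotype label; nothing in the labels pairs animals or names a batch. The whole table was fitted with edgeR 4.0.16 in R 4.3.3: filterByExpr (14100 genes, 99.9% of counts), TMM factors and the robust quasi-likelihood F test, two-sided, Benjamini-Hochberg adjusted over all genes tested, called below 0.05. The SE is the size of the log2 fold change over the root of F, and the 95% interval uses the degrees of freedom of the test. The common biological coefficient of variation was 21.5%. The script was tested on simulated data. Alternatives were DESeq2 1.42.0 (no adjusted p for 278 genes), limma 3.58.1 voom, other scalings and filters, and omission of libraries.

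Values in every library are given for the 12 genes with the smallest p, the smallest p of each role and the fibrinogen chains; KLKB1 was added after its values were seen. Of the other pathway genes, the 3 with the smallest p of each list are named, except that some of them are not reported here. The members and lists were chosen with earlier results of these data known.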

Additional observations from a re-analysis of the deposited data

Results flagged for a closer look

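Group values of each named transcript, and of depth and scaling factor, were searched for a library far from the others, in 92 group values; chance gives about 1 in 20, and 7 were found. WT 3 stood high in F2, at 1962 CPM with the next WT liver at 1379, in F9, at 1611 CPM against 1393, and in VKORC1, at 149 CPM against 104. Its TMM factor, 0.90, was also below the other WT factors, the nearest being 0.997. With total counts alone the log2 fold change of F2 was -0.25 and that of VKORC1 -0.23. F12 was low in WT 2, at 344 CPM against 437 for the next. PLAU was high in WT 1, at 2.16 CPM against 1.39, which rests on 31 counts. NQO1 was low in WT 1, at 6.19 CPM against 9.66.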

How the results depend on the processing

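Over the 18 alternatives 0 of the 32 transcripts were called, except by DESeq2, which called 1, GGCX, higher. Over all genes DESeq2 called 355 higher and 284 lower, limma voom 146 higher and 82 lower, and edgeR without WT replicates 1 and 2 called 42 higher and 24 lower. Without MIDY replicate 4 and WT replicate 3 together, an alternative chosen after seeing the data, edgeR called 76 higher and 34 lower. With 1 library left out, 34 (without MIDY replicate 2) to 152 (without WT replicate 1) genes were called higher and 4 to 107 lower, by the same omissions.

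For 20 of the 32 transcripts no alternative changed the sign of the fold change at 2 decimals (CPB2, at 0.00, had none, and ranged from -0.08 to 0.11 with 1 library left out), and 29 values in the other 12 did; none of these was called. With 1 library left out, the log2 fold change ranged from -0.19 to 0.05 for FGA, -0.32 to 0.06 for KLKB1, -0.11 to 0.35 for F3, -0.04 to 0.11 for F5, -0.02 to 0.19 for F8, -0.09 to 0.08 for F7, -0.08 to 0.06 for SERPINC1, -0.17 to 0.17 for A2M and -0.13 to 0.27 for PLAUR. Without WT replicates 1 and 2 it was 0.17 for KLKB1, -0.06 for F8, -0.01 for F7, -0.03 for A2M and -0.33 for PLAUR. Without MIDY replicate 4 and WT replicate 3 together it was 0.19 for FGA, 0.03 for F10, 0.11 for SERPINC1, 0.10 for SERPINF2 and 0.05 for VKORC1. The cause was not tested. With the 10 most abundant genes taken out, FGB and FGG had no value. The 10 to 99 counts per library of the scarce F13A1, F3, TFPI, PLAT, PLAU and PLAUR limit what could be seen there. No paired analysis was possible because nothing in the labels pairs animals.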
